A study of Mus musculus with 108 samples.

Results

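Messenger RNA of 9 spermatogonial surface and adhesion genes was measured in single cells of cultured mouse germline stem cells. The genes were taken by symbol from a table of 26218 genes: the tetraspanins Cd9, Cd81 and Tspan8, the adhesion molecules Epcam and Cdh1, the proteoglycan Sdc4, the membrane-anchored glycoproteins Cd24a and Thy1, and the receptor Gpr125, now named Adgra3. All 9 had a row. The cells came from 4 culture lines, 2 of GSC-like cells (GSCLC1 with 30 cells and GSCLC4 with 24) and 2 of germline stem cells (GSC1 with 30 cells and GSC2 with 24). GSCLCs descend from pluripotent stem cells and pass through reconstituted testes, and GSCs are taken from testes.

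All lines had the background strain 129/SvJcl x C57BL/6 and the AcrAct_EGFP reporter, and all were grown in StemPro-34 medium with GDNF, bFGF, LIF and EGF. For GSCLC4 the reconstituted testes had been held for 3 weeks at 34 °C, and for GSC2 the P7 testes were separate ones. The labels give neither detail for GSCLC1 or GSC1. The cells were released with trypsin and EDTA. A line is 1 culture, and cells of 1 line are not replicates, so comparisons between GSCLCs and GSCs set 2 line values against 2. Their p-values take only the spread between these cultures into account. In the limma fit described below, that spread is estimated for each gene partly from the other genes tested.

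Spermatogonial stem cells are rare in the testis, and surface molecules are used to sort them and to follow them in culture. Tetraspanins such as Cd9 and Cd81 arrange integrins and other membrane proteins into patches. Epcam and the cadherin Cdh1 hold neighbouring epithelial cells together, Cdh1 through catenins inside the cell. Syndecans such as Sdc4 carry heparan sulfate chains that bind growth factors, including FGFs and GDNF. Thy1 and Cd24a are held in the membrane by a glycosylphosphatidylinositol (GPI) anchor, and Gpr125 belongs to the adhesion G protein-coupled receptors.

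Expression was read from the 3′ ends of polyadenylated RNA (SC3-seq) and given as RPM, read numbers scaled to a common total over all genes of a cell. RPM here is not divided by gene length, so each gene is compared with itself across cells and lines. Estimated depth had a median of 3.45 M reads per cell, and line medians were 3.19 M and 3.26 M in GSCLC1 and GSCLC4, against 3.71 M and 4.30 M in GSC1 and GSC2. At these depths 1 read was worth between 0.166 and 0.500 RPM. The germ cell label held: the summed level of 10 germ cell markers, among them Dazl and Ddx4, had line medians of 6560 and 5775 RPM in GSCLC1 and GSCLC4, against 5829 and 6104 RPM in GSC1 and GSC2. Markers of other cell types were partly at 0 in every cell: 2 of 10 Sertoli cell markers (Amh, Gata1), 2 of 9 Leydig and peritubular markers (Cyp11a1, Cyp17a1) and 4 of 10 blood and endothelial markers (Laptm5, Tyrobp, Hba-a1, Emcn). The rest were above 0 in some cells. The summed Sertoli cell markers had line medians of 0.792 and 62.9 RPM in GSCLC1 and GSCLC4, against 0.706 and 0.310 RPM in GSC1 and GSC2. In GSCLC4 the sum reached 269.98 RPM, and Wt1 (11.3 and 25.8 RPM in the GSCLC lines, against 3.94 and 0.55 RPM in the GSC lines) and Rhox5 (37.2 RPM in GSCLC4) had the largest means there. The Leydig and peritubular sum had line medians of 0 and 6.94 RPM in the GSCLC lines, against 0.488 and 0.798 RPM in the GSC lines, and the blood and endothelial sum was under 1 RPM at the median of every line. The part of such markers in the results below was not tested. A single GSC1 cell stood apart from the rest. It had 5748 detected genes, a germ cell marker sum of 1282 RPM and 80573 RPM of fibroblast and feeder cell markers. This cell is included unless stated. Without it the GSC1 means were 248.7 RPM for Cd9, 192.8 RPM for Epcam, 18.3 RPM for Tspan8, 212.5 RPM for Sdc4, 37.6 RPM for Cd24a and 79.5 RPM for Gpr125, and the order of the 4 line means was the same for each of these genes.

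The upstream sequences of the tetraspanin genes are shown because these 3 relatives behaved differently across cells, as described next. Each is the stretch from 250 to 51 bases before the RefSeq transcript start (GRCm38.p6), 5′ to 3′ on the gene's strand, with every CG dinucleotide in capitals. The Tspan8 stretch (chr10:115817034-115817233, plus strand) lies within the annotated span of that gene. The Cd9 stretch (chr6:125494811-125495010) is on the minus strand and the Cd81 stretch (chr7:143052500-143052699) on the plus strand.
Tspan8: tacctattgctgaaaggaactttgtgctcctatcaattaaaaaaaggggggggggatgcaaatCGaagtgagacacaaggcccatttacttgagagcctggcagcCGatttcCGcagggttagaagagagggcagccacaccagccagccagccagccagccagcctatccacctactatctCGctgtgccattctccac
Cd9: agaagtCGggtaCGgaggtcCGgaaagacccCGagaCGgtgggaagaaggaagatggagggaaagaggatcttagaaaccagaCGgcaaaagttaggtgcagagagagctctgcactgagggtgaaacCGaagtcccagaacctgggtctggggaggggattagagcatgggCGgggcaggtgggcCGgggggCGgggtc
Cd81: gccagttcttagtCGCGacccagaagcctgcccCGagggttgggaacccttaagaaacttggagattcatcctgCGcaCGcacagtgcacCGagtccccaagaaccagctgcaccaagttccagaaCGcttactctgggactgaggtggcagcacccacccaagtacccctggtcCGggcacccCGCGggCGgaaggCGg
Tspan8 held 4 CG dinucleotides, Cd9 held 10 and Cd81 held 12. Of the 32851 promoters of this length in the table, 54.2% held at least as many as Tspan8, 29.3% at least as many as Cd9 and 24.3% at least as many as Cd81. The letters GGGCGG, searched on both strands, matched 0 times in Tspan8, 2 times in Cd9 and 1 time in Cd81, and at least once in 24.6% of promoters. Epcam, Sdc4 and Gpr125 also had an entry, with 8, 14 and 18 CG dinucleotides. These matches describe the letters of the window and nothing more.

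None of the surface and adhesion genes passed the test between GSCLCs and GSCs. Of the 9, 7 were high enough to be tested (2 or more lines with a mean of 5 RPM or above), and Cdh1 and Thy1 were not. The test was limma on log2(line mean RPM + 1), with Benjamini-Hochberg adjustment over 10526 genes and a threshold of 0.05. It called 0 of the 7, against 0.0760% of all genes tested, and 2 of the 7 (Tspan8 and Epcam) had an unadjusted p under 0.05, against 8.83% of all genes. Both GSCLC line means lay above both GSC line means for Tspan8 and Sdc4 (21.99% of all genes did so) and below them for Epcam (17.3%), so that 3 of the 7 did not overlap, against 39.3% of all genes. The median log2 difference of the 7 was −0.09, beside 0.04 over all genes tested.

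**Figure D1:**
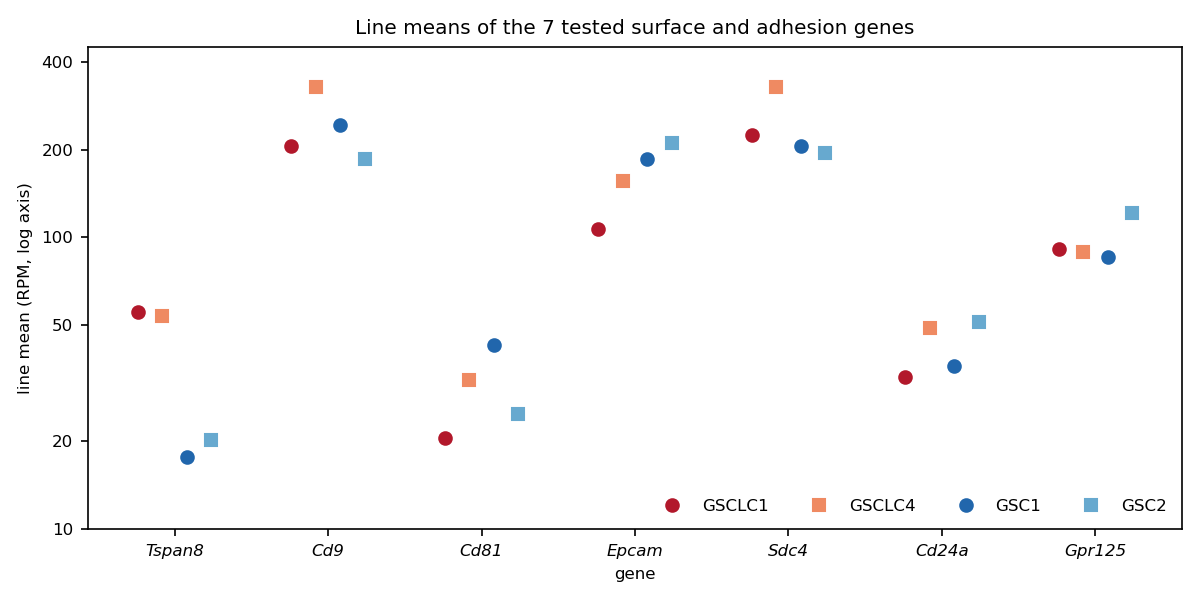
Mean RPM over the cells of each line (log axis) for the 7 tested genes, with GSCLC1 and GSCLC4 in red tones and GSC1 and GSC2 in blue tones; each point is 1 line. For Tspan8 the GSCLC lines, at 55.4 and 54.0 RPM, lie above the GSC lines at 17.7 and 20.3 RPM, and for Epcam they lie below.

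Tspan8 showed the largest difference of the 7. This tetraspanin, known as a surface marker that separates spermatogonia by stem cell potential, lies on chromosome 10, 115816817 to 115849893. Its line means were 55.4 and 54.0 RPM in GSCLC1 and GSCLC4, against 17.7 and 20.3 RPM in GSC1 and GSC2. The line means of each type were close to each other and the types did not overlap: the mean was 54.7 ± 0.994 RPM in GSCLC lines and 19.0 ± 1.81 RPM in GSC lines (SD, n = 2 lines each). The log2 difference was 1.48 ± 0.37 (SE; limma, unadjusted p = 0.00163, adjusted p = 0.285), which did not pass. The GSCLC lines were close in mean only. Their medians were 5.56 RPM in GSCLC1 and 39.8 RPM in GSCLC4, and their shares of cells with at least 5 RPM were 50% and 75%. A single GSCLC4 cell held 29.4% of that line's Tspan8 signal, the largest such share of any line. The small SD between these means is thus not a measure of how alike the lines were.

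Within every line Tspan8 varied widely between cells. It ranged over cells from 0 to 317 RPM with a median of 5.56 RPM in GSCLC1, and from 0 to 381 RPM with a median of 39.8 RPM in GSCLC4. In GSC1 it ranged from 0 to 139 RPM with a median of 0.30 RPM, and in GSC2 from 0 to 126 RPM with a median of 0.795 RPM. Cells without Tspan8 reads occurred in every line. At least 5 RPM, a level worth several reads in every cell, was found in 15 of 30 GSCLC1 cells (50%, 95% Clopper-Pearson interval 31.3% to 68.7%) and 18 of 24 GSCLC4 cells (75%, 53.3% to 90.2%), against 9 of 30 GSC1 cells (30%, 14.7% to 49.4%) and 9 of 24 GSC2 cells (37.5%, 18.8% to 59.4%). These intervals cover counting error only. Both GSCLC shares lay above both GSC shares, as they did for 22.2% of all genes tested (two-sided exact permutation test over lines, p = 0.333, which is the lowest value this design allows).

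Among the cells with at least 5 RPM, the median Tspan8 level was 58.6 and 50.6 RPM in GSCLC1 and GSCLC4, against 60.4 and 46.2 RPM in GSC1 and GSC2, and so overlapped. The mean level of those cells was 110.3 and 71.9 RPM in GSCLC1 and GSCLC4, against 58.1 and 53.5 RPM in GSC1 and GSC2. These means did not overlap, and how many of all genes did so was not counted. In GSCLC1 6 cells and in GSCLC4 1 cell were above the highest GSC cell. The difference in line means thus went with a larger share of cells with at least 5 RPM of Tspan8 and with a few cells of high level. The share of cells above 0 RPM was 66.7% and 79.2% in GSCLC1 and GSCLC4, against 53.3% and 66.7% in GSC1 and GSC2, and overlapped. In the GSCLC lines Tspan8 also varied between cells more than the trend of variation with mean over tested genes. Measured from that trend, its coefficient of variation stood at the 94.8th and 96.1st percentile of tested genes in GSCLC1 and GSCLC4. In GSC1 and GSC2 it stood at the 62nd and 71.2nd.

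**Figure D2:**
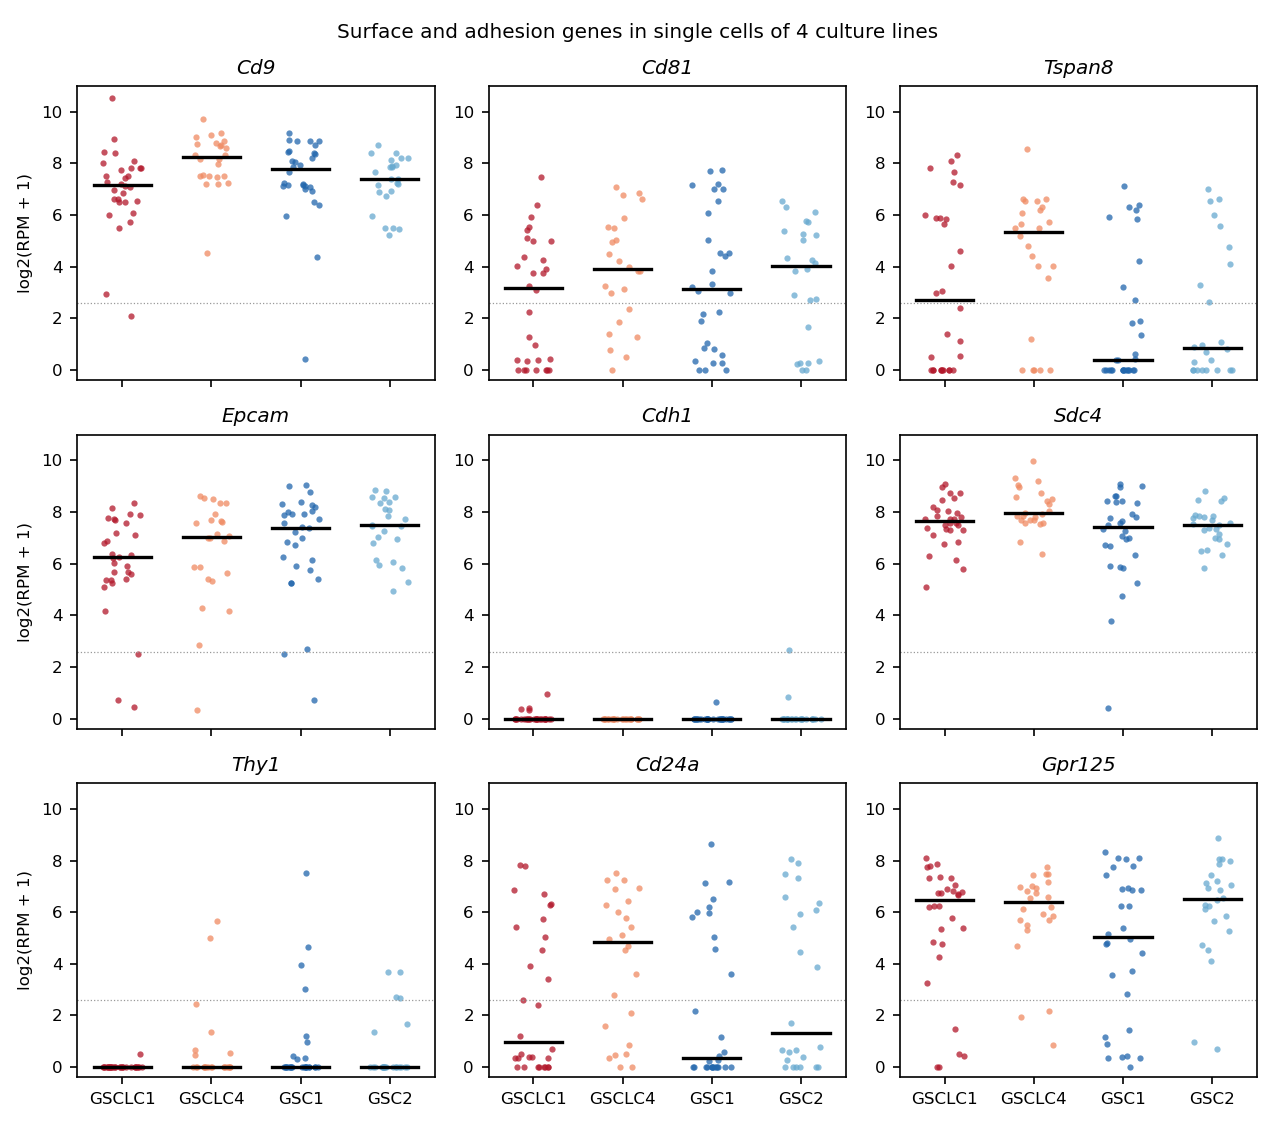
Expression of the 9 genes as log2(RPM + 1) in every cell of GSCLC1, GSCLC4, GSC1 and GSC2; each point is a cell, the black bar is the line median and the dotted line marks 5 RPM. Cd9, Epcam and Sdc4 form 1 cloud of cells in each line, whereas Tspan8, Cd81 and Cd24a spread from 0 upward, and Cdh1 and Thy1 sit at 0 in most cells.

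Cd9 was found in every cell of the 4 lines. This tetraspanin (chromosome 6, 125460266 to 125494760) is a marker used to enrich spermatogonial stem cells. Over cells it ranged from 3.25 to 1499 RPM with a median of 142.7 RPM in GSCLC1, and from 22.4 to 850 RPM with a median of 305 RPM in GSCLC4. It ranged from 0.355 to 578 RPM with a median of 219 RPM in GSC1, and from 36.8 to 416 RPM with a median of 168.04 RPM in GSC2. Line means were 205 and 329 RPM in GSCLC1 and GSCLC4, against 242 and 185.6 RPM in GSC1 and GSC2, so the types overlapped. The log2 difference was 0.29 ± 0.24 (SE; limma, adjusted p = 0.786), and without GSCLC4 it was −0.05. A single GSCLC1 cell held 24.3% of that line's Cd9 signal. The coefficient of variation of Cd9 in GSCLC1 was 1.3. Measured from the trend of variation with mean, it stood at the 99.7th percentile of all tested genes.

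Cd81, the partner tetraspanin of Cd9, was spread unevenly over the cells of every line. It lies on chromosome 7, 143052750 to 143067930, and was above 0 in 95 cells. The share with at least 5 RPM was 53.3% in GSCLC1 and 70.8% in GSCLC4, against 56.7% in GSC1 and 70.8% in GSC2. Its median was 7.97 and 14.0 RPM in GSCLC1 and GSCLC4, against 7.86 and 15.2 RPM in GSC1 and GSC2, with highest cells at 176.2 and 135.8 RPM against 212 and 91.6 RPM. The types thus overlapped in share, median and range. The line means were 20.5 and 32.5 RPM in GSCLC lines, against 42.7 and 24.8 RPM in GSC lines (log2 −0.32 ± 0.43, SE; limma, adjusted p = 0.894). The highest of all Cd81 cells was the GSC1 cell that stands apart, and without it the GSC1 mean was 36.8 RPM.

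Epcam was also found in every cell and was the only one of the 7 with both GSCLC line means below both GSC means. Epcam (chromosome 17, 87635979 to 87651127) encodes the epithelial cell adhesion molecule, which marks spermatogonia as well as epithelia. It ranged from 0.359 to 326 RPM with a median of 75.3 RPM in GSCLC1, and from 0.243 to 397 RPM with a median of 130 RPM in GSCLC4. It ranged from 0.660 to 533 RPM with a median of 166.8 RPM in GSC1, and from 29.8 to 457 RPM with a median of 178 RPM in GSC2. The ranges over cells overlapped widely. Line means were 107.03 and 156.02 RPM in GSCLC1 and GSCLC4, against 186.4 and 211 RPM in GSC1 and GSC2. The log2 difference was −0.61 ± 0.24 (SE; limma, unadjusted p = 0.0232, adjusted p = 0.507), which did not pass.

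For Epcam the share of cells at 5 RPM did not separate the types, at 90% and 95.8% in GSCLC1 and GSCLC4, against 93.3% and 100% in GSC1 and GSC2. At 20 RPM the shares were 86.7% and 83.3% in the GSCLC lines, against 90% and 100% in the GSC lines, which no longer overlapped, as for 8.78% of all genes in that direction. Among cells with at least 5 RPM the median was 79.4 and 135 RPM in GSCLC1 and GSCLC4, against 179 and 178 RPM in GSC1 and GSC2. For Epcam the medians of cells at this level thus did not overlap between the types. How many of all genes did so was not counted. Plain line means did not overlap for 39.3% of all genes.

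Cdh1, the gene of E-cadherin, was all but absent from the data. It lies on chromosome 8, 106603350 to 106670247. Values above 0 occurred in 4 GSCLC1 cells and in none of the 24 GSCLC4 cells, against 1 GSC1 cell and 2 GSC2 cells. A count of 0 in 24 cells allows a share of up to 12.5% (3 cells of 24; the 95% Clopper-Pearson bound is 14.2%), which limits cells with a read and not cells that express the gene. The highest Cdh1 value was 5.27 RPM, in a GSC2 cell, and the other 6 cells had between 0.268 and 0.921 RPM. Line means were 0.0606 and 0 RPM in GSCLC1 and GSCLC4, against 0.0182 and 0.253 RPM in GSC1 and GSC2. No direction can be read at this level.

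Some other genes of cadherin adhesion were well detected beside the near absence of Cdh1, and others were low. Among the low ones, Ctnna1, the gene of an alpha-catenin, had 7.80 and 12.7 RPM in GSCLC1 and GSCLC4, against 4.96 and 5.61 RPM in GSC1 and GSC2. Cdh3, a further cadherin gene, had 3.52 and 1.05 RPM in the GSCLC lines, against 1.94 and 6.50 RPM in the GSC lines. Ctnnb1, the gene of beta-catenin, which binds cadherin tails, had 792 and 796 RPM in GSCLC1 and GSCLC4, against 678 and 693 RPM in GSC1 and GSC2, and was above 0 in every cell. Cdh2, the gene of N-cadherin, which was picked after its values were seen, had 55.8 and 41.9 RPM in the GSCLC lines, against 31.4 and 39.9 RPM in the GSC lines, and was above 0 in 87 cells. Of the 16 genes listed for cadherin and nectin adhesion, 15 had a row and 11 were tested. None passed; 5 had both GSCLC line means above both GSC means (21.99% of all genes) and 0 had both below (17.3%), and 2 had an unadjusted p under 0.05 (8.83%). Vcl, the gene of the actin linker vinculin, had 86.8 and 102 RPM in the GSCLC lines, against 62.2 and 53.2 RPM in the GSC lines (log2 0.70, limma, adjusted p = 0.507). Pvrl3, the gene of nectin-3, had 146.8 and 113.1 RPM against 78.3 and 91.6 RPM (log2 0.60, limma, adjusted p = 0.547). The median log2 difference of the list was 0.44, beside 0.04 over all genes.

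Sdc4, the gene of syndecan-4, was present in every cell. It lies on chromosome 2, 164424247 to 164443188. It ranged over cells from 33.3 to 537 RPM with a median of 201 RPM in GSCLC1, and from 81.7 to 1009.6 RPM with a median of 247 RPM in GSCLC4. It ranged from 0.330 to 536 RPM with a median of 170 RPM in GSC1, and from 55.4 to 450.1 RPM with a median of 180 RPM in GSC2. The lowest GSC1 value was that of the cell that stands apart, and all other cells had at least 5 RPM. Line means of 225 and 329 RPM in GSCLC1 and GSCLC4 lay above those of 205 and 196 RPM in GSC1 and GSC2, as for 21.99% of all genes. The log2 difference was 0.44 ± 0.22 (SE; limma, adjusted p = 0.595), and without GSCLC4 it was 0.17.

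Among the relatives of Sdc4, Gpc4 differed in the other direction without passing. Gpc4, the gene of the heparan sulfate proteoglycan glypican-4, had 21.3 and 12 RPM in GSCLC1 and GSCLC4, against 42.9 and 47.4 RPM in GSC1 and GSC2 (log2 −1.43, limma, adjusted p = 0.395). Of the 17 listed syndecan, glypican and heparan sulfate genes, 11 were tested, 0 passed, 3 lay above and 1 (Gpc4) below in both GSCLC lines (21.99% of all genes lay above and 17.3% below), and the median log2 difference was 0.06. Sdcbp, the gene of the syndecan-binding adaptor syntenin, was the most abundant, with 190 and 248 RPM against 202 and 195 RPM.

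Cd24a was spread over cells much like Tspan8 but did not separate the types. Cd24a (chromosome 10, 43579169 to 43584265) encodes a small GPI-anchored sialoglycoprotein. Its line means were 33.3 and 49.0 RPM in GSCLC1 and GSCLC4, against 36.4 and 51.2 RPM in GSC1 and GSC2 (log2 −0.09 ± 0.36, SE; limma, adjusted p = 0.976). At least 5 RPM was found in 43.3% and 66.7% of cells, against 36.7% and 45.8%. Cells on both sides of this level were found in every line. Medians were 0.973 and 27.8 RPM in GSCLC1 and GSCLC4, against 0.269 and 1.49 RPM in GSC1 and GSC2, while the highest cells had 224 and 183.01 RPM against 396 and 266 RPM. The direction depended on the summary: the log2 difference was 0.60 from the mean of log values over cells and 2.08 from line medians, and neither passed.

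Thy1 was rare, and its level in each line rested on few cells. Thy1 (chromosome 9, 44043384 to 44048579) encodes a small GPI-anchored glycoprotein that is used to enrich stem cells from mouse testis and is also found on fibroblasts and T cells. Values above 0 were found for 1 of 30 cells in GSCLC1 and 7 of 24 in GSCLC4, against 9 of 30 in GSC1 and 6 of 24 in GSC2. It had at least 5 RPM in 0 and 2 cells of the GSCLC lines, against 4 and 4 cells of the GSC lines. These shares, 0% and 8.33% against 13.3% and 16.7%, did not overlap, as for 6.52% of the genes tested in that direction (exact permutation test, p = 0.333). At 20 RPM the shares were 0% and 8.33% in GSCLC1 and GSCLC4, against 6.67% and 0% in GSC1 and GSC2, and overlapped. In GSCLC1, 0 of 30 cells at 5 RPM allows a share of up to 10.0% (3 cells of 30; the 95% Clopper-Pearson bound is 11.6%).

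The Thy1 line means were 0.0143 and 3.69 RPM in GSCLC1 and GSCLC4, against 7.77 and 1.61 RPM in GSC1 and GSC2. The GSC1 cell that stands apart had 183.99 RPM and held 79% of the line's Thy1 signal, and without it the GSC1 mean was 1.69 RPM. The summed level of the 16 fibroblast and feeder markers, of which Lum was at 0 in all cells, ranged from 28.6 to 1215 RPM over GSCLC cells and from 222 to 80573 RPM over GSC cells. Its line medians were 318 and 621 RPM in GSCLC1 and GSCLC4, against 902 and 666 RPM in GSC1 and GSC2. No other cell with Thy1 had a sum near 80573 RPM, but the sums differed. In GSC1 the next cells had 24.5, 14.3 and 7.10 RPM of Thy1 with 252, 586 and 1831 RPM of these markers. In GSCLC4 the 2 highest cells had 49.7 and 31.4 RPM of Thy1 with 1215 and 525 RPM, the former the top of the GSCLC range. The germ cell marker sums of these cells were 6776, 7753 and 4579 RPM in GSC1 and 5368 and 4580 RPM in GSCLC4. Whether Thy1 went with these markers was not tested.

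Genes of the enzymes that make the GPI anchor were found in all lines, though some only at a low level. Pigc, for example, had 6.89 and 2.58 RPM in GSCLC1 and GSCLC4, against 0.034 and 1.23 RPM in GSC1 and GSC2, and was above 0 in 10 cells. Of 24 listed genes, 20 were tested and 0 passed; 7 lay above and 3 below in both GSCLC lines (21.99% of all genes lay above and 17.3% below), and the median log2 difference was 0.14. Pigx, which encodes a subunit of an early mannosyltransferase of this pathway, had 139 and 169.4 RPM in GSCLC1 and GSCLC4, against 85.9 and 121.85 RPM in GSC1 and GSC2 (log2 0.58, limma, adjusted p = 0.547).

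Gpr125 did not pass the test between the types, and its direction depended on the summary. This receptor gene (chromosome 5, 49959951 to 50058996), known as a marker of spermatogonia and their cultured progenitors in mice, was above 0 in all but 3 cells. Its line means were 91.5 and 89.2 RPM in GSCLC1 and GSCLC4, against 86.0 and 121.5 RPM in GSC1 and GSC2 (log2 −0.18 ± 0.26, SE; limma, adjusted p = 0.909). Medians were 87.8 and 83.2 RPM in GSCLC1 and GSCLC4, against 32.3 and 90.5 RPM in GSC1 and GSC2. GSC1 thus had the lowest median while its mean was near those of the GSCLC lines. GSC1 also had the lowest share of cells with at least 5 RPM, at 73.3%, against 83.3% and 87.5% in GSCLC1 and GSCLC4 and 91.7% in GSC2. Of 16 listed adhesion receptors of this kind, 14 had a row and 7 were tested; 0 passed, and the largest difference was that of the latrophilin gene Lphn2, with 52.5 and 26.8 RPM in GSCLC lines, against 50.9 and 99.8 RPM in GSC lines (limma, adjusted p = 0.558).

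**Figure D3:**
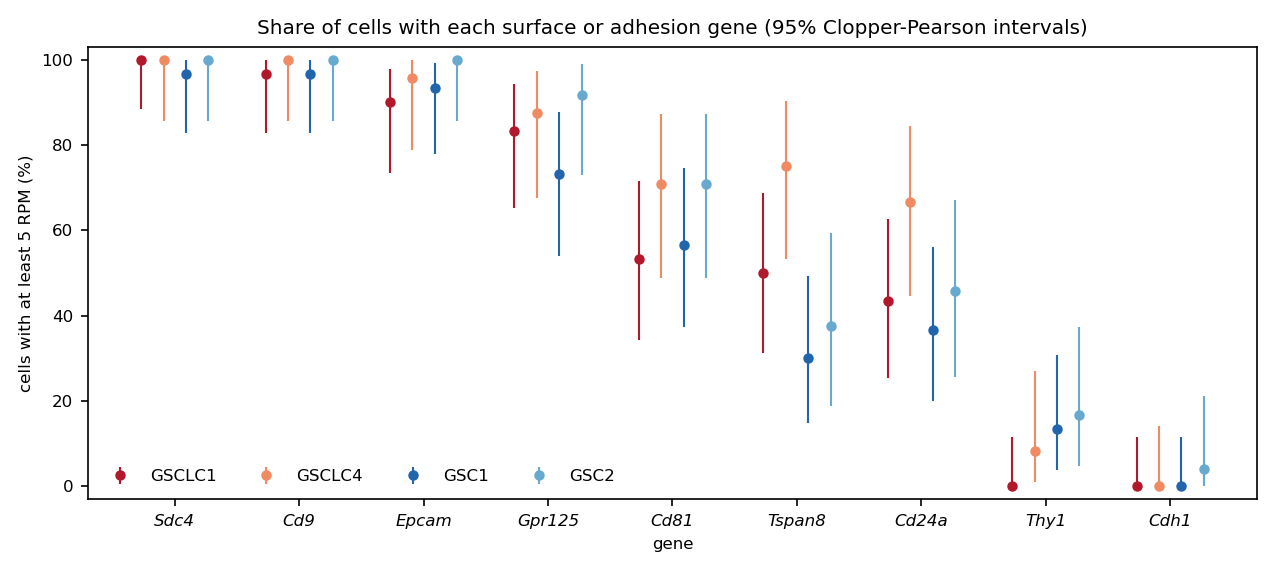
Share of cells with at least 5 RPM of each gene in GSCLC1, GSCLC4, GSC1 and GSC2; bars are 95% Clopper-Pearson intervals for counting error. Tspan8 has shares of 50% and 75% in the GSCLC lines, above 30% and 37.5% in the GSC lines, and for the other genes except Thy1 the lines of the types overlap.

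On the log2(RPM + 1) scale only Thy1 differed past 2-fold between GSCLC4 and GSCLC1 (log2 2.21) and between GSC2 and GSC1 (log2 −1.75), where 14.6% of genes did so in each comparison. Cdh1 stayed within 2-fold there only through the added 1 RPM, since its means were all under 1 RPM. Without the GSC1 cell that stands apart, the second of these was within 2-fold. When the 4 lines were put in order of their means, 24 of the 27 gaps between neighbouring lines were smaller than the standard deviation between cells in both lines, and the exceptions were in Cdh1 and Thy1. This spread is a wide measure for means over 24 to 30 cells, and the Tspan8 gap between the types lay within it too, so it does not show that lines are alike.

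A typical cell carried several of the 9 genes at once. The median number with at least 5 RPM was 5 and 6 in GSCLC1 and GSCLC4, against 5 and 6 in GSC1 and GSC2, with a range of 3 to 8 over all cells. Cd9, Epcam and Sdc4 reached this level together in 26 of the 30 cells of GSCLC1 and 23 of the 24 of GSCLC4, against 27 of the 30 of GSC1 and all 24 of GSC2. Adding Gpr125 left 84 cells over the 4 lines. All 3 tetraspanins did so in 7 and 14 cells of GSCLC1 and GSCLC4, against 6 and 7 cells of GSC1 and GSC2. Most cells thus had Cd9, Epcam and Sdc4 at this level, while Cd81, Tspan8 and Cd24a varied from cell to cell. Cd9, Epcam and Sdc4 each had a high share of cells singly. Whether they occurred together beyond those shares was not tested. Cells below 5 RPM for all of Cd81, Tspan8 and Cd24a numbered 4 of 30 and 0 of 24 in the GSCLC lines, against 8 of 30 and 2 of 24 in the GSC lines.

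The levels of these genes showed little order among themselves across cells. Spearman rho was computed across the cells of each line for the 21 pairs of the 7 tested genes. It is given as a description, because the cells of a line share 1 culture and are not replicates. Only 1 pair, Cd24a with Gpr125, had a positive rho in all 4 lines (7.75% of pairs of these genes with any tested gene did so), and its values were only 0.01 and 0.05 in GSCLC1 and GSCLC4, against 0.04 and 0.17 in GSC1 and GSC2. None of the 21 was negative in all 4 lines (5.75% of pairs with any gene). The median over the values of the 21 pairs in the 4 lines was 0.03. For pairs with any gene, the median of the rho averaged over lines was 0.01, which is not quite the same measure. Such values are too weak to be read as a relation.

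By the average rho over the 4 lines the 3 strongest pairs involved Cd9, and none of them held in GSC2. Cd9 and Sdc4 had a rho of 0.34 and 0.18 in GSCLC1 and GSCLC4, against 0.46 in GSC1 (0.42 without the cell that stands apart) and −0.10 in GSC2. Cd9 and Cd81, whose proteins associate in the membrane, had a rho of −0.29 and −0.32 in GSCLC1 and GSCLC4, against −0.52 in GSC1 and 0.06 in GSC2. Without the cell that stands apart the GSC1 value was −0.47. Cd9 and Tspan8 had a rho of 0.39 and 0.35 in GSCLC1 and GSCLC4, against −0.17 in GSC1 and 0.07 in GSC2. Tspan8 and Cd24a, both present in a subset of cells, changed sign between lines, with −0.44 in GSCLC4 and 0.46 in GSC1.

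**Figure D4:**
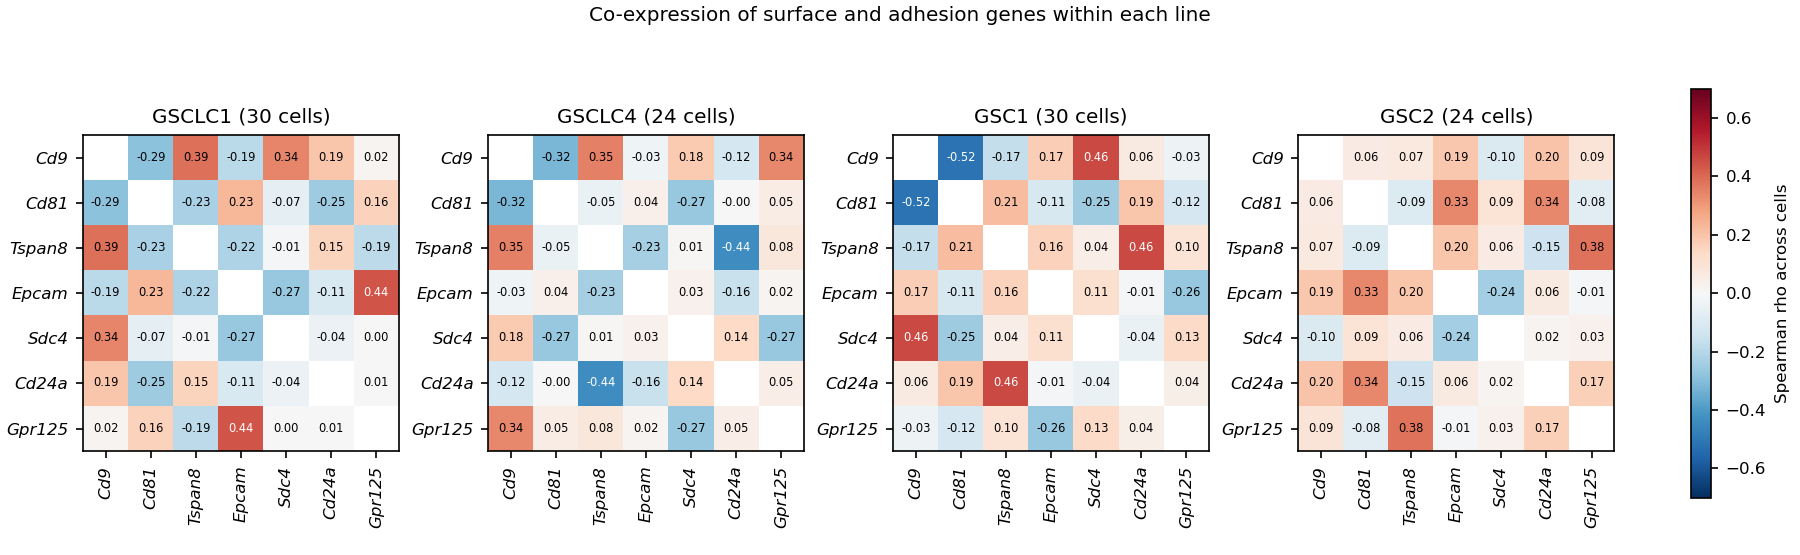
Spearman rho across cells for each pair of the 7 tested genes, with 1 panel for each line, GSCLC1 and GSCLC4 first; red is positive and blue negative. Few pairs keep their colour in all panels; Cd9 with Cd81 is negative in GSCLC1, GSCLC4 and GSC1 and 0.06 in GSC2.

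Larger values appeared with some genes outside the group. Epcam was positively related to genes of S phase and mitosis. Its rho with the summed level of 20 S phase and G2/M genes was 0.61 and 0.57 in GSCLC1 and GSCLC4, against 0.18 and 0.10 in GSC1 and GSC2, and 0.10 in GSC1 without the cell that stands apart. Of the 20 genes, 9 had a positive rho with Epcam in all 4 lines, where 10.04% of all genes did so, and 8 without that cell. They included Top2a, the gene of topoisomerase II alpha, at 0.52 and 0.57 in GSCLC1 and GSCLC4, against 0.26 and 0.19 in GSC1 and GSC2. Ccnb1, the gene of cyclin B1, had 0.49 and 0.31 in the GSCLC lines, against 0.27 and 0.31 in the GSC lines. Without the cell that stands apart the GSC1 values were 0.19 for both. The difference between the types in these rho values was not tested.

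Sdc4 and Cd9 had negative values with several of these genes. The rho of Sdc4 with the sum was −0.18 and −0.44 in GSCLC1 and GSCLC4, against −0.36 and −0.05 in GSC1 and GSC2, and −0.51 in GSC1 without the cell that stands apart. Of the 20 genes, 6 were negative with Sdc4 in all 4 lines (6.51% of all genes), and 8 without that cell. For Cd9 the rho with the sum was −0.08 and 0.05 in GSCLC1 and GSCLC4, against −0.52 and −0.19 in GSC1 and GSC2, and −0.66 in GSC1 without that cell. With Cd9, too, 6 of the 20 genes were negative in all 4 lines (4.72% of all genes), and 1 was positive. Of 14 tested genes of undifferentiated spermatogonia, 3 were positive with Sdc4 in all 4 lines (6.54% of all genes) and 2 were negative (6.51%). Among the positive ones was Ret, the gene of the receptor that signals for GDNF. Its rho with Sdc4 was 0.50 and 0.07 in GSCLC1 and GSCLC4, against 0.46 and 0.15 in GSC1 and GSC2. Without the cell that stands apart the GSC1 value of Ret was 0.40.

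Cd9 was positively related to Etv5 and Lhx1 in all 4 lines. Both encode transcription factors that respond to GDNF in cultured mouse spermatogonia, and both were picked after their values were seen. Its rho with Etv5 was 0.32 and 0.38 in GSCLC1 and GSCLC4, against 0.39 and 0.26 in GSC1 and GSC2, and that with Lhx1 was 0.32 and 0.25 against 0.38 and 0.27. Without the cell that stands apart the GSC1 values were 0.34 for both. Bcl6b, another GDNF-responsive gene, had −0.15 and 0.25 in GSCLC1 and GSCLC4, against 0.04 and 0.15 in GSC1 and GSC2, and Id4 was negative in 2 lines. Averaged over lines, the rho with Etv5 stood at the 99.9th percentile of those of Cd9 with all tested genes. Of 14 tested genes of undifferentiated spermatogonia, 5 were positive with Cd9 in all 4 lines (9.004% of all genes) and 0 were negative (4.72%). For Cd81 the counts were 0 positive (5.48%) and 5 negative (7.19%; 4 without the cell that stands apart), among them Zbtb16, at −0.20 and −0.38 in GSCLC1 and GSCLC4, against −0.35 and −0.01 in GSC1 and GSC2, and Sall4. Without that cell the GSC1 value of Zbtb16 was −0.29. Of 10 tested germ cell markers, 4 were negative with Cd81 in all 4 lines and 1 was positive. With Cd9, the median of the line-averaged rho was 0.12 over the 14 genes of undifferentiated spermatogonia. It was 0.12 for the Epcam relatives, 0.12 for the syndecan list, 0.11 for the cadherin list and 0.05 for germ cell markers. Positive values with Cd9 were thus not particular to genes of undifferentiated spermatogonia.

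Lhx1 itself was lower in GSCLCs without passing, and Cd9 was not. Lhx1 had 60.8 and 34.4 RPM in GSCLC1 and GSCLC4, against 134 and 154.7 RPM in GSC1 and GSC2 (log2 −1.63, limma, adjusted p = 0.0980), and Etv5 had 319 and 296 RPM against 277 and 279 RPM (log2 0.14, limma, adjusted p = 0.877). The relation with Cd9 was thus one between cells of a line, and the line means of Cd9 did not follow those of Lhx1.

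**Figure D5:**
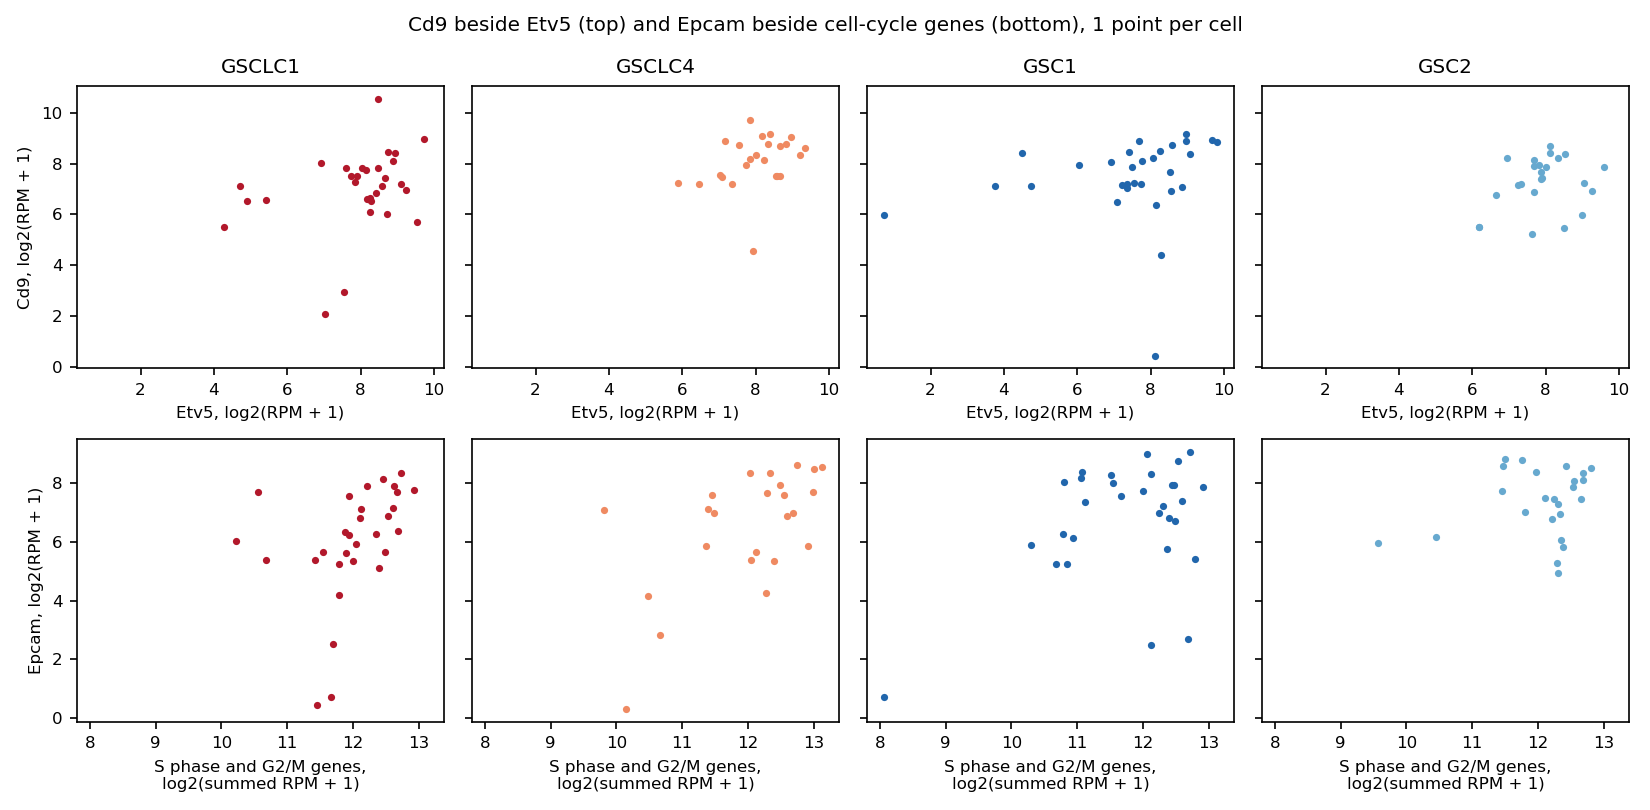
Upper panels plot Cd9 against Etv5, and lower panels plot Epcam against the summed level of 20 S phase and G2/M genes, all as log2 of RPM plus 1, in GSCLC1, GSCLC4, GSC1 and GSC2; each point is a cell. The Epcam cloud climbs to the right in GSCLC1 and GSCLC4 (rho 0.61 and 0.57) and less so in GSC1 and GSC2 (rho 0.18 and 0.10).

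The genes whose levels were most like each member's across cells were named by a fixed rule: the 3 highest averages of the 4 within-line rho values among 5814 genes with at least 20 RPM in every line. Being the highest of so many, they are a description. For Epcam they were Calm2 (average rho 0.46), one of the calmodulin genes, which lies 189 kb from Epcam on chromosome 17, then Hn1 (0.41) and Cenpa (0.39), the gene of the centromeric histone H3. For Cd9 they were Pnp (0.39), a purine salvage enzyme gene, Nr1d2 (0.38), the gene of a clock repressor, and Atg16l1 (0.36), an autophagy gene. For Cd81 they were Tbc1d14 (0.32), Txn2 (0.32), the mitochondrial thioredoxin gene, and Rbm42 (0.30).

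For Sdc4 the nearest were Ifnar1 (0.38), which encodes a chain of the type I interferon receptor, Ssbp1 (0.34) and Syt11 (0.33). For Cd24a they were Pes1 (0.41), a ribosome assembly gene, Ppp2r2c (0.34) and Pkig (0.33). For Gpr125 they were Bzw1 (0.37), Dnm1l (0.33), which encodes the dynamin of mitochondrial fission, and Cdk13 (0.33). No surface or adhesion gene under study was among the 3 nearest of another. Tspan8 was under 20 RPM in GSC1 and was not ranked.

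Relatives of the tetraspanins did not separate the types as a group. Of 27 listed tetraspanins and partners, 20 were tested and 0 passed; 6 lay above and 3 below in both GSCLC lines (21.99% of all genes lay above and 17.3% below), 4 had an unadjusted p under 0.05 (8.83% of all genes), and the median log2 difference was 0.05. Tspan13 had 28.4 and 28.6 RPM in GSCLC1 and GSCLC4, against 12.6 and 11.6 RPM in GSC1 and GSC2 (log2 1.17, limma, adjusted p = 0.507). Ifitm1, the gene of an interferon-induced membrane protein that is also present in early mouse germ cells, had 87.0 and 56.2 RPM against 38.4 and 8.19 RPM (log2 1.90, limma, adjusted p = 0.395). Of 18 listed relatives of Epcam and junction genes, 10 were tested, 0 passed, 5 lay above and 0 below (21.99% of all genes lay above and 17.3% below), with a median of 0.28, and Tjp1, a tight junction scaffold gene, had 417 and 409 RPM against 372 and 437 RPM.

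Other surface genes used for spermatogonia also gave 0 of 12 tested genes past the threshold. Both GSCLC lines lay above for 2 and below for 5 (21.99% of all genes lay above and 17.3% below), and the median log2 difference was −0.05, beside 0.04 over all genes. Itga6, the gene of the integrin alpha 6 chain used to enrich stem cells, had 69 and 75.3 RPM in GSCLC1 and GSCLC4, against 125 and 93.6 RPM in GSC1 and GSC2 (log2 −0.58, limma, adjusted p = 0.563). Itgav, another integrin chain gene, had 8.05 and 5.28 RPM against 23 and 17.4 RPM (log2 −1.48, limma, adjusted p = 0.503). Cd164, a sialomucin gene, was the most abundant, with 605 and 612 RPM in GSCLC1 and GSCLC4, against 578 and 779 RPM in GSC1 and GSC2.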

How the data were processed

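Each sample was 1 cell. The authors deposited 1 table of expression signal in RPM (read numbers scaled over the gene rows) for 26218 genes and 92 spike-in RNAs. Cutadapt 1.3, TopHat 1.4.1, Cufflinks 2.2.0 and the build mm10 were used, per the submitters' processing notes; the counting of reads with several positions is not stated there. Empty spike-in entries (6440) were read as 0, and spike-ins were left out of the gene tests. The worth of 1 read was estimated in each cell from its most frequent low value. Between 80.6% and 92.0% of a cell's values came out as whole reads (tolerance 0.05 read), too few for a count model. Of the low values of the 9 genes (under 60 reads), all were whole except 1 of 10 for Epcam. No column of the table was left unassigned (0 unused).

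Line values were means of RPM over all cells of a line. The fit was limma 3.58.1 (lmFit, eBayes with a variance trend) in R 4.3.3 on log2(mean RPM + 1), which understates changes of low genes. Shares, ranks and figures were made in Python 3.11.15 with numpy 2.4.6, pandas 2.3.3 and scipy 1.17.1. The script was tested on simulated line values. Named genes were the 9 members, the 3 nearest genes of each member with at least 20 RPM in every line, and, of each of 16 lists, up to 3 tested genes by size of change and at least 20 RPM in the type where it was higher, plus the most abundant gene of each surface list; Cdh2, the individual cell cycle and spermatogonial genes given with a rho, and the pairs singled out were chosen after their values were seen. Only part of the genes this rule names is printed. The members and lists were chosen with earlier results of these data known. Positions and upstream sequences are from RefSeq (GRCm38.p6, which mm10 is built on), joined through Entrez identifiers for 24619 of 26218 genes (93.9%). Alternatives covered the pseudocount, filter, summary over cells, scaling, variance model, thinning to equal depth, the GSC1 cell that stands apart, the serial number runs of GSC1 and each line left out.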

Additional observations from a re-analysis of the deposited data

How the results depend on the processing

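The count of 0 of the 7 tested surface and adhesion genes past the threshold was the same in every alternative run, and Tspan8 stayed higher in GSCLCs in each (log2 1.16 to 3.42, adjusted p 0.260 to 0.763). Over all genes limma called 8; the count was 3 with a pseudocount of 0.1 RPM, 14 with 10 RPM, 23 with a filter at 20 RPM, 22 from the mean of log values, 3 with median-of-ratios scaling, and 4 and 2 with GSC1 cells of serial number under 129 and from 129 up. It was 0 with no filter (1388 genes at an unadjusted p under 0.05), 0 from line medians (706) and 0 without the variance trend (871). With 1 line left out it ranged from 1 to 22 (4 without GSCLC1, 1 without GSCLC4, 6 without GSC1, 22 without GSC2); the lone line is then assumed to vary like the others. Small differences changed sign. With a line left out, Cd9 ranged from −0.047 to 0.63 on the log2 scale, Cd81 from −0.70 to 0.057, Cd24a from −0.37 to 0.18 and Gpr125 from −0.42 to 0.071. Cd24a was 0.60 from the mean of log values, 2.08 from line medians and 0.0047 with GSC1 cells from serial number 129 up, and Gpr125 was 0.25 and 0.65 from the first 2 of these. Shares of cells above 0 separated the types for 0 genes, and for 1 (Tspan8) after thinning to equal depth. Pairs positive in all 4 lines numbered 1, and 3 with Pearson r, 2 without the cell that stands apart and 2 with GSC1 cells under 129. Differences past 2-fold within a type numbered 2, and 1 without that cell; this and the counts of list genes with a rho of one sign without it were chosen after seeing the data. The causes were not tested. No paired analysis was possible because the lines share no replicate numbers. With 2 lines a type, differences of moderate size can stay below the threshold.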
